A study of Mus musculus with 8 samples.

Results

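The 7 genes described here encode the 4 subunits of the negative elongation factor NELF, both subunits of the DRB sensitivity-inducing factor DSIF, and the elongation factor SPT6. They were chosen by name and taken by their mm9 symbols from a count table of 21915 Ensembl genes, in which each of the 7 had 1 row. Whsc2 (now Nelfa), Cobra1 (Nelfb), Th1l (Nelfcd) and Rdbp (Nelfe) encode NELF-A, NELF-B, NELF-C/D and NELF-E. Supt4h1 (Supt4a) and Supt5h (Supt5) encode SPT4 and SPT5, which form DSIF, and Supt6h (Supt6) encodes SPT6, which is not part of DSIF.

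Shortly after RNA polymerase II has started on a gene, DSIF and NELF bind the polymerase and hold it in a paused state close to the promoter. The kinase P-TEFb then phosphorylates NELF, SPT5 and the polymerase, NELF leaves, and DSIF stays with the polymerase as a positive elongation factor. SPT6 is a histone chaperone that travels with the elongating polymerase. KAP1, encoded by Trim28, is a corepressor that has also been placed among the regulators of polymerase pausing, and the counts are used to ask whether the mRNA of the pausing factors differs in cells depleted of it.

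Polyadenylated RNA was sequenced from Hepa 1-6 cells, a mouse hepatoma line, in 2 control and 2 Kap1 KD samples collected 5 days after transduction. According to the methods, Kap1 KD cells carried a pLKO lentiviral vector with an shRNA against Kap1, control cells carried the empty vector, and both were selected with puromycin. The labels call the control vector a control shRNA plasmid. Nothing states that the samples of a group were separate cultures, so that p-values measure the spread between these samples, which may be technical.

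Summed over genes, control replicates 1 and 2 had 53605115 and 49915004 counts, and Kap1 KD replicates 1 and 2 had 41566888 and 49578846. Of the listed genes, 14142 passed the filter on low counts and were tested, among them all 7 genes. Values are given as CPM, the counts of a gene relative to the library total after TMM normalization, which scales the libraries to each other.

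The replicate 2 libraries stood apart from the replicate 1 libraries. Over the tested genes, log2 CPM differed by a root mean square of 0.59 between the control samples and of 0.63 between the Kap1 KD samples. Across the groups it differed by 0.30 between the replicate 1 samples and by 0.40 between the replicate 2 samples. The samples of a group were thus less alike than the samples of a number. The titles give the number 2 to 1 sample of each group and no number to the other, which was taken as replicate 1.

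Trim28 (chr7:13609501-13616384 in mm9) had 456 and 575 CPM in control replicates 1 and 2 and 106 and 78.9 CPM in Kap1 KD replicates 1 and 2. Both Kap1 KD samples lay far below both control samples. The quasi-likelihood test of edgeR put the log2 fold change at -2.48, with a standard error of 0.25 and an adjusted p of 0.9999, so that even the targeted gene did not pass this test over all genes. DESeq2 gave Trim28 a log2 fold change of -2.47 with an adjusted p of 3.08e-11.

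Of 6 hepatocyte and hepatoma markers, Alb, Afp and Hnf4a were well detected, while Apoa1, Ttr and Serpina1a had at most 21 counts in any sample, so that some of the products that define a hepatocyte were near 0 in these cells. The summed level of the 6 was 2387 and 1990 CPM in control and 1664 and 1035 CPM in Kap1 KD replicates 1 and 2, with Alb, at 1580, 1037, 975 and 441 CPM, or Afp the most abundant. The summed level of 7 markers of leukocytes, endothelium, fibroblasts, stellate cells, macrophages and bile duct cells ran up to 3.59 CPM in a library. Krt19, at 124 counts, reached the highest count among them, and the endothelial Kdr had 0 counts in both controls and 1 in each Kap1 KD sample. Whether the lower summed level of the liver markers in Kap1 KD bears on the genes below was not tested. In bulk samples, fewer cells that use a gene and less RNA per cell cannot be told apart.

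The genes of SPT4 and NELF-A need a word on identity before their values. The Supt4h1 transcript, read from the plus strand of chr11:87551054-87557125, has an intronless match at chr10:31133314-31134007, in an intron of Tpd52l1, that is equal in 99.1% of its bases and differs in 3 of the 354 coding bases. RefSeq (GRCm38.p6) lists a second SPT4 gene, Supt4b (Supt4h2), among the genes inside Tpd52l1, and the count table used here has no row matched to it. A further intronless match at chr6:95189915-95190619, outside annotated genes, was equal in 91.1% of its bases. The end of the coding sequence is shown because there a read cannot be assigned by its sequence alone. Capitals mark bases of a copy that differ from Supt4h1, all lines read in the direction of the transcript, and they cover coding bases 205 to 354. The stretches lie on the minus strand at chr10:31133618-31133767 and chr6:95190219-95190368 in mm9.
Supt4h1: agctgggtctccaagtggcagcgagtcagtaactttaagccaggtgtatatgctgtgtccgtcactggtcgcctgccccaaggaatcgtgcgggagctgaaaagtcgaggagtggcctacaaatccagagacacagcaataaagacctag
Copy on chromosome 10: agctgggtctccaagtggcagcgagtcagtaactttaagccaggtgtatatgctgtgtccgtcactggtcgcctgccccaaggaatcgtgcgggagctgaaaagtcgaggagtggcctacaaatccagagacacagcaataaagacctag
Copy on chromosome 6: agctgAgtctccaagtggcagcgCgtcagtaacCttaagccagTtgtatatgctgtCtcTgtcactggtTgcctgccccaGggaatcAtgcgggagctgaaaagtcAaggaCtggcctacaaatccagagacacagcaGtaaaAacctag

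The copy on chromosome 10 holds no capital in these 150 bases, and its longest stretch equal to the coding sequence is 172 bases. The copy on chromosome 6 holds 13 capitals. Reads had been given 1 alignment each. The sequence of a read from this stretch does not tell the gene from the chromosome 10 copy. The aligner was also given the annotated transcripts, and where it placed such reads was not tested. The counts of Supt4h1 are uncertain to that extent. No match of this kind was found for the other 6 genes. Whsc2 (chr5:34239585-34279062, minus strand) shares 1040 bp, or 21.1% of its exons, with Whsc1 on the opposite strand. Supt6h (chr11:78020248-78059489, minus strand) shares 242 bp (3.41%) with Sdf2, and Th1l (chr2:174241305-174253003, plus strand) shares 10 bp with Ctsz. The kit marked the strand according to the labels, but whether the counting used it is not given in the sources used here, so that the counts of Whsc2 in particular are uncertain. Cobra1 (chr2:25055232-25067009, minus strand), Rdbp (chr17:34987336-34993317, plus strand) and Supt5h (chr7:29099917-29123738, minus strand) share no exon with another gene.

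The level of each gene was compared with the others per length, as CPM divided by the kb of its annotated exons. For Supt4h1 the mean level was 69.0 ± 11.4 CPM per kb (SD, n = 2, as for the values that follow) in the controls and 71.7 ± 5.89 after Kap1 KD. Rdbp followed at 60.4 ± 13.9 in control and 66.4 ± 15.3 in Kap1 KD, and Supt5h at 57.9 ± 7.59 in control and 57.6 ± 10.2 in Kap1 KD. Supt4h1 was above Supt5h in each of the 4 libraries, by 1.16 to 1.34 times, while Rdbp was below Supt4h1 and above Supt5h in 3 of the 4 libraries each, so that its place between them was not fixed. More than 90% of the tested genes had a lower level than each of them (92.3%, 91.5% and 90.6% in that order).

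Supt6h stood at 30.8 ± 0.411 CPM per kb in control and 26.5 ± 0.849 in Kap1 KD, and Th1l at 26.6 ± 4.83 in control and 24.5 ± 3.40 in Kap1 KD. Supt6h was above Th1l in each of the 4 libraries, but their ranges overlapped. Cobra1 was lower, at 19.1 ± 3.67 in control and 18.0 ± 3.12 in Kap1 KD. Whsc2 was the lowest of the 7, at 5.44 ± 0.019 in control and at 5.57 and 6.42 in Kap1 KD replicates 1 and 2, close to the median of 5.58 over all tested genes with a length. The mRNAs of the NELF subunits were thus far from equal, with the one for NELF-E at 9.32 to 12.9 times the one for NELF-A per length within a library. With the longest transcript as the length in place of all exons, Rdbp (81.9 CPM per kb over the 4 libraries) came before Supt4h1 (77.6), and Th1l (32.3) before Supt6h (31.3).

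**Figure D1:**
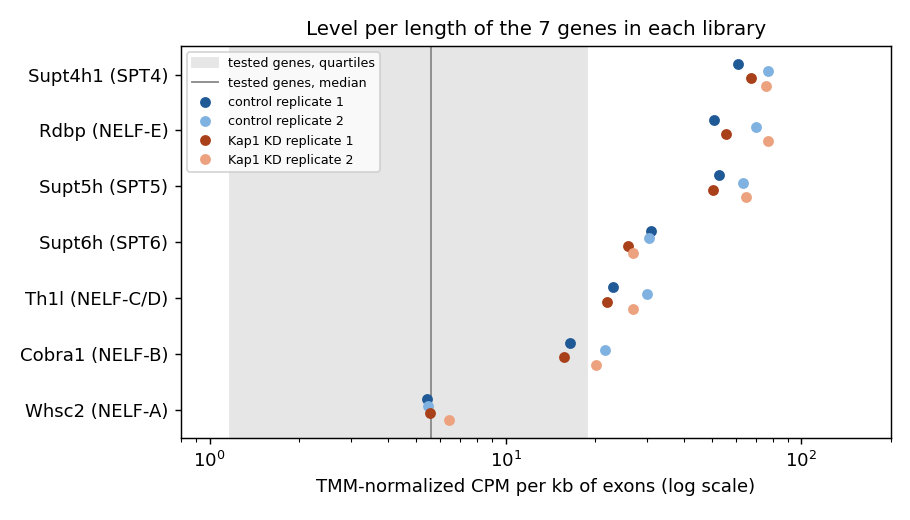
Level of the 7 genes in CPM per kb of exons (log axis), 1 point per library, with the quartiles of the tested genes as a grey band (1.17 to 18.9) and their median as a line (5.58). Supt4h1, Rdbp and Supt5h lie together at the top and Whsc2 lies at the median.

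NELF-A carries the domain through which NELF inhibits elongation. Whsc2 had 26.7 and 26.9 CPM in control replicates 1 and 2 and 27.4 and 31.6 CPM in Kap1 KD replicates 1 and 2. Both Kap1 KD samples lay above both controls, by little in replicate 1. The log2 fold change in edgeR was 0.14, with a standard error of 0.20 and an adjusted p of 0.9999. Pair by pair, the log2 change was 0.04 for replicate 1 and 0.23 for replicate 2.

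Cobra1, named as a cofactor of BRCA1, encodes the NELF-B subunit, which joins NELF-E to the rest of the complex. It had 56.7 and 74.5 CPM in control and 54.2 and 69.3 CPM in Kap1 KD replicates 1 and 2. Both replicate 2 samples were the high ones, and the groups overlapped. Pair by pair, the log2 change was -0.06 for replicate 1 and -0.10 for replicate 2, and edgeR gave -0.09 (standard error 0.24, adjusted p = 0.9999).

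Th1l encodes NELF-C and NELF-D, which are made from the same mRNA by different start codons. It had 66.7 and 86.4 CPM in control and 63.6 and 77.5 CPM in Kap1 KD replicates 1 and 2. The order of the 4 samples was the same as for Cobra1, with both replicate 2 samples high and control replicate 2 the highest. Pair by pair, the log2 change was -0.07 for replicate 1 and -0.16 for replicate 2, with -0.12 (standard error 0.23, adjusted p = 0.9999) in edgeR.

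NELF-E binds RNA, and its gene Rdbp had the largest difference between replicate numbers of the 7. It had 105 and 146 CPM in control and 115 and 160 CPM in Kap1 KD replicates 1 and 2. Both replicate 2 samples lay above both replicate 1 samples, and within each number the Kap1 KD sample was the higher one. The log2 change was 0.14 in either pair, and edgeR gave 0.14 (standard error 0.27, adjusted p = 0.9999).

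SPT4 is the small subunit of DSIF and stabilizes SPT5. Supt4h1 had 57.5 and 72.6 CPM in control and 63.6 and 71.5 CPM in Kap1 KD replicates 1 and 2. The Kap1 KD samples fell between the 2 controls. The pairs went opposite ways, with log2 changes of 0.15 in replicate 1 and -0.02 in replicate 2, and edgeR gave 0.05 (standard error 0.21, adjusted p = 0.9999).

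SPT5 bridges the cleft of the polymerase and is the subunit that P-TEFb phosphorylates. Supt5h had 184 and 222 CPM in control and 177 and 228 CPM in Kap1 KD replicates 1 and 2. The groups had nearly the same mean, 203 and 202 CPM, and the controls lay between the Kap1 KD samples. Its log2 change was -0.06 for replicate 1 and 0.04 for replicate 2, with -0.01 (standard error 0.21, adjusted p = 0.9999) in edgeR. Median-of-ratios factors gave 0.00, on the other side of 0.

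Averaged over the groups, Supt6h had the least difference between replicate numbers of the 7, with opposite signs in the groups (log2 -0.03 in control and 0.07 in Kap1 KD), while in the controls alone Whsc2 differed less (0.01). It had 220 and 216 CPM in control replicates 1 and 2, from 12270 and 10725 counts. In Kap1 KD replicates 1 and 2 it had 184 and 192 CPM, from 7815 and 8981 counts. Both Kap1 KD samples lay below both controls, and the gap between the means, 218 ± 2.92 and 188 ± 6.02 CPM (SD, n = 2 each), was larger than the spread between the replicates of either group. Pair by pair, the log2 change was -0.26 for replicate 1 and -0.17 for replicate 2. The test across all genes, which takes part of the spread from the other genes, gave a log2 fold change of -0.22 (standard error 0.16, 95% interval -0.63 to 0.19, adjusted p = 0.9999 in edgeR), so that the difference did not pass it. This fit does not match samples by replicate number. With matching, Supt6h had an adjusted p under 0.05 in edgeR, at less than 1.5-fold. Of all tested genes, 21.6% had an adjusted p under 0.05 in that fit, at any fold. In DESeq2 with matching, Supt6h did not pass, while 6.07% of all tested genes did. Those fits are given in the last section.

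**Figure D2:**
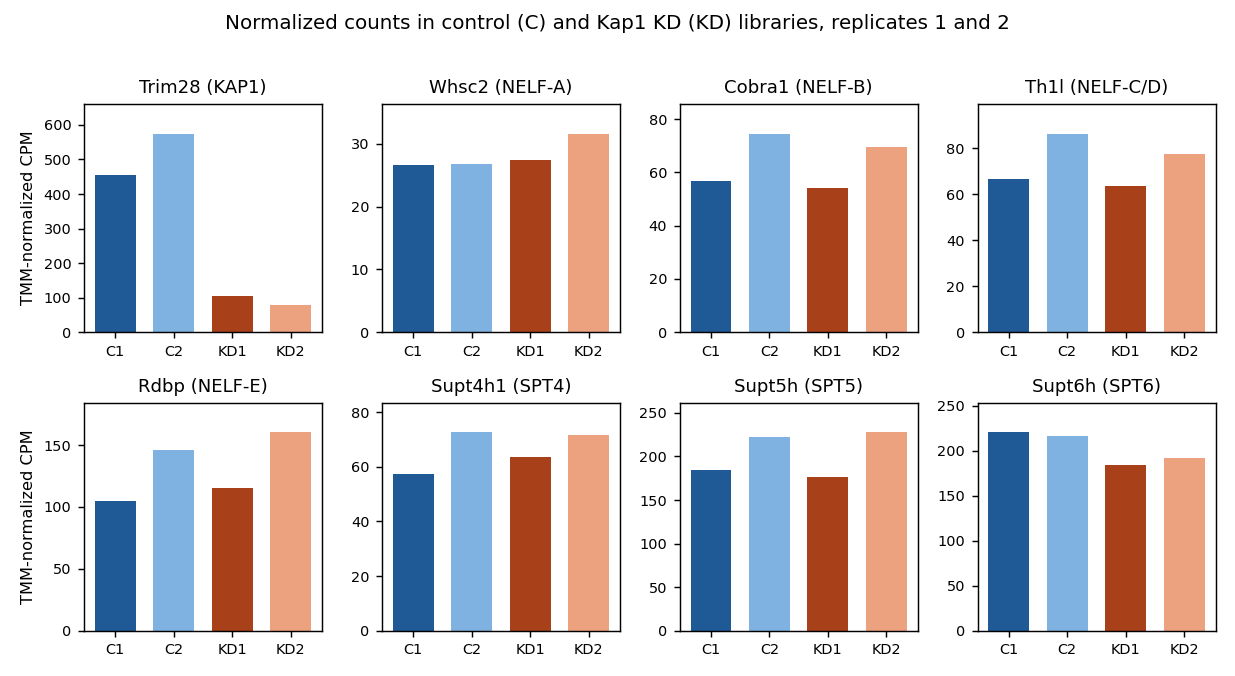
CPM of Trim28 and the 7 genes in control (C) and Kap1 KD (KD) libraries of replicates 1 and 2, 1 bar per library, each panel with its own axis from 0. Trim28 is low in both KD libraries (106 and 78.9 CPM), Supt6h is lower in both by a small amount (184 and 192 against 220 and 216 CPM), and Cobra1, Th1l, Rdbp, Supt4h1 and Supt5h are higher in both replicate 2 libraries.

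At 1.5-fold and an adjusted p under 0.05, edgeR called 0 of the 7 genes, against 0% of all tested genes, and 0 of the 7 had an unadjusted p under 0.05, against 1.31% of all tested genes (185). DESeq2 also called 0 of the 7, and called 2 genes higher and 1 lower among all tested genes. Trim28 was not called by edgeR with the 4 libraries together but was called when any 1 of them was left out (log2 fold change -2.71 to -2.27), with 0 of the 7 called in any of those fits. These counts do not show that the 7 mRNAs were unaltered. The 95% intervals of the fit without matching by replicate number bound the change more directly. Over the 7 genes the fold of Kap1 KD over control reached from 0.608 (the lower bound of Cobra1) to 1.78 (the upper bound of Rdbp). The intervals of 0 of the 7 genes included a 2-fold difference in either direction, and those of 6 included a 1.5-fold difference, Supt5h (0.678 to 1.46) being the exception. The edgeR fit that matches samples by number gave narrower intervals for the 7 genes, which stand in the last section. Leaving out any 1 library kept the direction for Whsc2 and Supt6h. For each of the other 5 genes, the sign changed with 2 of the 4 libraries left out in turn. Over the 7 genes this was 10 of the 28 values computed. Without control replicate 2 the log2 fold change was 0.14 for Cobra1, 0.10 for Th1l and 0.15 for Supt5h, and without Kap1 KD replicate 1 it was 0.08, 0.02 and 0.17. Without control replicate 1 it was -0.08 for Rdbp and -0.11 for Supt4h1, and without Kap1 KD replicate 2 it was -0.11 and -0.02. Leaving out 1 library also leaves the replicate numbers unbalanced between the groups, and for these 5 genes the numbers differed by 0.25 to 0.47 on the log2 scale.

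Set pair by pair, 3 of the 7 genes (Cobra1, Th1l and Supt6h) were lower in Kap1 KD in both pairs, as were 38.1% of all tested genes. Another 2 (Whsc2 and Rdbp) were higher in both pairs, as were 32.8% of all tested genes, and Supt4h1 and Supt5h went opposite ways in the pairs. With total counts in place of TMM, 4 of the 7 were lower in both pairs. That scaling also moved the median log2 fold change of all tested genes in edgeR, from -0.02 to -0.06. The shares given here for all tested genes are with TMM. In 1 gene, Supt6h, both Kap1 KD samples lay below both controls, which held for 10.6% of all tested genes. In 1 gene, Whsc2, both lay above, which held for 9.69%. For Kap1 KD replicate 1 the gap of Whsc2 to the controls was smaller than the counting error of that sample, given below. With so few genes, these counts do not set the 7 apart from the other tested genes. The median log2 change of the 7 was -0.06 for replicate 1 and -0.02 for replicate 2, beside -0.02 and 0.00 over all tested genes.

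**Figure D3:**
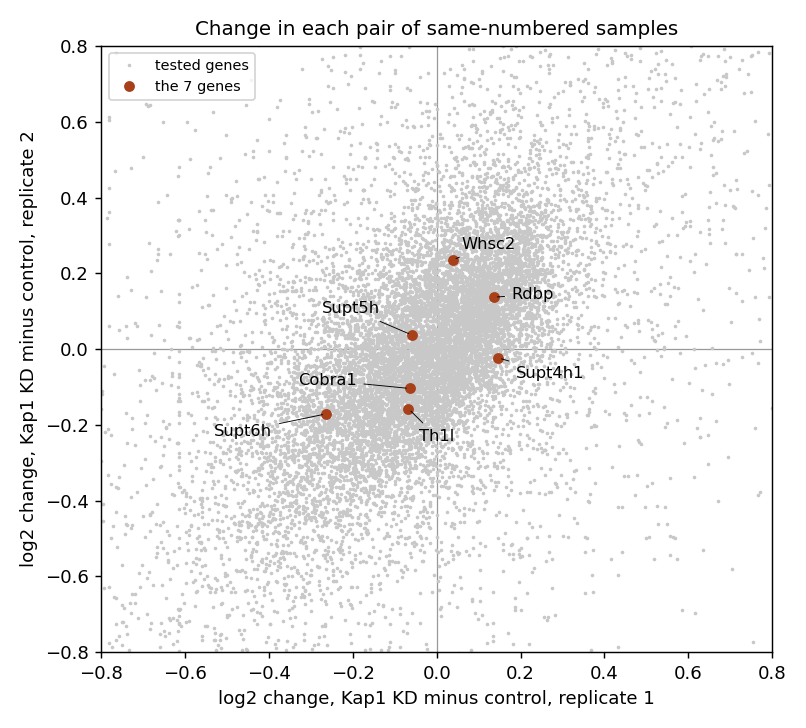
Log2 change of Kap1 KD minus control in the replicate 1 samples (horizontal) and in the replicate 2 samples (vertical), for the 7 genes and all tested genes within 0.8 on both axes (856 tested genes lie outside). Supt6h, Th1l and Cobra1 lie in the lower left quadrant and Whsc2 and Rdbp in the upper right quadrant, all nearer to the center than to the corners.

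The counting error of the 7 genes was small beside the spread between replicates for most of them. The smallest count of the 7 genes in a library was 1169, for Whsc2, where the counting error is 2.92% of the count, and it was 1.13% for Supt6h at its smallest count. The SD between replicates was 22.9% of the mean in control and 23.0% in Kap1 KD for Rdbp, and between 13.1% and 19.2% for Cobra1, Th1l and Supt5h in control. For Supt6h it was far smaller, 1.34% among controls and 3.21% after Kap1 KD, close to its counting error in the controls. For Whsc2 it was 0.353% among controls, below its counting error, so that the likeness of the 2 controls is closer than counting alone can show. After Kap1 KD the SD of Whsc2 was 10% of the mean, above its counting error. Its smallest count was that of Kap1 KD replicate 1. That sample (27.4 CPM) exceeded the controls (26.7 and 26.9 CPM) by less than this counting error. Counting errors cover the sampling of reads only.

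The 7 genes differed between replicate numbers mostly in the same direction. In both groups, 6 of them were higher in replicate 2 than in replicate 1, the exception being Supt6h, beside 42.8% of all tested genes. On the log2 scale, and averaged over the groups, replicate 2 exceeded replicate 1 by 0.47 for Rdbp, 0.37 for Cobra1, 0.33 for Th1l, 0.32 for Supt5h, 0.25 for Supt4h1 and 0.11 for Whsc2. For Supt6h the difference was 0.02. For each of the 7 except Whsc2 and Supt6h, the difference between replicate numbers was thus larger than its own log2 fold change between Kap1 KD and control.

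The difference between replicate numbers moved with base composition. Across the 12417 tested genes with a GC content (87.8%), it correlated with the GC content of the longest coding transcript at a Pearson's r of 0.63 and a Spearman's rho of 0.68. These are across genes, which are not independent replicates and share the same 4 libraries. The median difference was -0.55 in genes with 40% to 45% GC and 0.45 in genes with 60% to 65% GC. In genes with 50% to 55% GC it was 0.19 (quartiles -0.03 to 0.38). In genes with 55% to 60% GC it was 0.365 (quartiles 0.16 to 0.55). These 2 ranges hold the 7 genes, and each of the 7 lay within the quartiles of its range. The transcripts of the 7 genes held 50.2% (Supt4h1) to 57.9% (Rdbp) GC, with a median of 55.2% against 50.3% over the tested genes. The part of base composition in the values of the 7 was not tested.

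**Figure D4:**
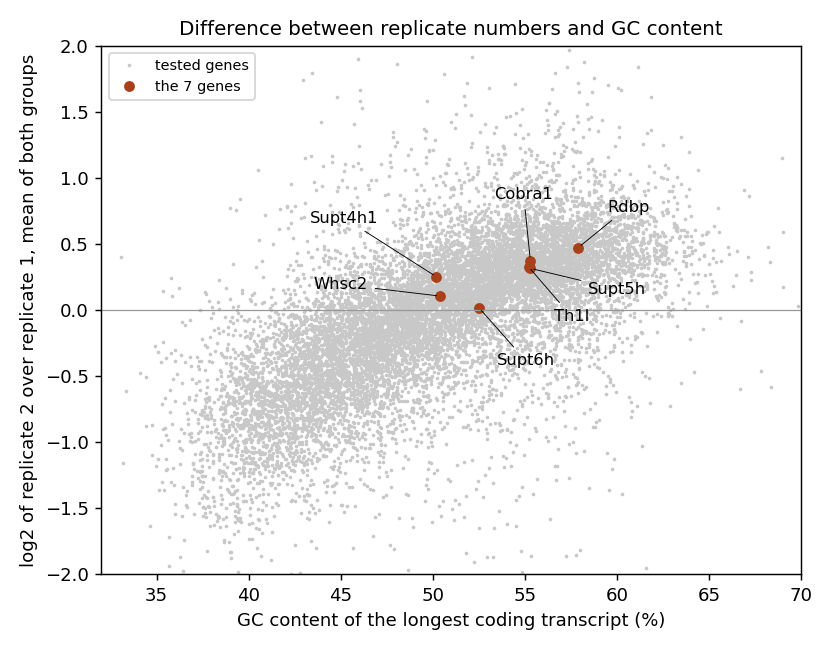
Log2 of replicate 2 over replicate 1, averaged over control and Kap1 KD (vertical), against the GC content in percent of the longest coding transcript (horizontal), for the 7 genes and the tested genes (64 lie outside the axes). Rdbp, with the highest GC content of the 7 (57.9%), has the largest difference (0.47). Supt4h1, with the lowest (50.2%), lies at 0.25 and Whsc2 (50.4%) at 0.11, both above Supt6h (52.5%) at 0.02.

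Ratios within a library are free of the scaling between libraries. Of the summed level per kb of the 4 NELF mRNAs, Rdbp made up 52.9% and 55.1% in control and 56.1% and 59.1% in Kap1 KD replicates 1 and 2. The share of Th1l was 24.2% and 23.5% in control and 22.3% and 20.6% in Kap1 KD, and that of Cobra1 was 17.3% and 17.0% in control and 15.9% and 15.5% in Kap1 KD. The groups did not overlap in these 3 shares, which are parts of 1 sum and so not independent, while the CPM of each of the 3 genes did overlap between the groups. For single genes in CPM, both Kap1 KD samples lay below both controls for 10.6% of all tested genes and above for 9.69%, which is no rate for shares within a library, for which none was computed. With 2 samples per group the lowest two-sided p of an exact permutation test is 0.333. Whsc2 made up 5.67% and 4.28% in control and 5.62% and 4.91% in Kap1 KD.

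Within DSIF, the level of Supt4h1 was 1.16 and 1.22 times that of Supt5h in control and 1.34 and 1.17 times in Kap1 KD replicates 1 and 2, with overlapping groups. The level of Supt6h was 0.592 and 0.482 times that of Supt5h in control and 0.513 and 0.417 times in Kap1 KD. This ratio was lower in Kap1 KD within each replicate number, while the groups overlapped.

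To set the 7 genes in context, 8 lists with 69 genes of transcription elongation were read from the same test. Of these genes 68 were tested. In the fits that do not match samples by replicate number, 0 were called by edgeR (0% of all tested genes) and 0 by DESeq2 (0.0212%). In edgeR, 0 had an unadjusted p under 0.05, against 1.31% of all tested genes. The median log2 fold change of the 68 was -0.05, against -0.02 over all tested genes. It lay below 0 for 46 genes (67.6%), against 52.9% of all tested genes. In both pairs 34 were lower (50%, against 38.1% of all tested genes) and 17 higher (25%, against 32.8%).

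P-TEFb is the kinase that ends pausing, and the 7SK snRNP holds it inactive. Of their proteins, 0 of 7 were called, against 0% of all tested genes in edgeR. The median log2 fold change was 0.01. Values ran from -0.48 (standard error 0.44) for the cyclin gene Ccnt2 to 0.13 (standard error 0.33) for Larp7, which binds 7SK RNA. The super elongation complex, which carries P-TEFb to paused polymerase, had 8 of 9 genes tested, with a median of -0.15. Values ran from -0.61 (standard error 0.565) for Eaf2, which had under 1 CPM in each sample, to 0.33 (standard error 0.24) for Ell.

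The PAF1 complex, which works with DSIF and SPT6 during elongation, had a median of -0.05 over 6 genes, with values from -0.16 for Wdr61 to 0.10 for Paf1. The list of SPT6 partners and histone chaperones held 4 genes, with a median of -0.20 and values from -0.24 for the histone methyltransferase gene Setd2 to -0.01 for Ssrp1, a subunit of FACT. The 4 values lay below 0, as did those of 52.9% of all tested genes, with standard errors between 0.16 and 0.63. Ssrp1 went opposite ways in the pairs, with log2 changes of 0.06 and -0.08, and the groups of each of the 4 genes overlapped in CPM. Setd2 had 55.9 and 46.4 CPM in the replicate 1 and 21.3 and 19.1 CPM in the replicate 2 samples of control and Kap1 KD, so that its difference between numbers far exceeded the one between groups.

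TFIIS and pausing regulators had a median of -0.11 over 7 genes, from -0.25 for Tcea3 to 0.03 for Tcea2, both TFIIS genes of low level. The kinases and phosphatases of the polymerase's C-terminal domain had a median of -0.04 over 10 genes, from -0.12 for Rprd1b to 0.25 for the cyclin gene Ccnk. RNA polymerase II subunits had a median of -0.01 over 12 genes, from -0.36 for Polr2k to 0.13 for Polr2f. The Integrator complex, an endonuclease assembly that ends transcription of paused polymerases, had a median of -0.12 over 14 genes, 11 of them below 0 (78.6%, against 52.9% of all tested genes).

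Within Integrator, Ints8 had the lowest log2 fold change of the 68 genes. It had 74.1 and 42.4 CPM in control and 48.2 and 25.8 CPM in Kap1 KD replicates 1 and 2. Within each number the Kap1 KD sample was the lower one, with log2 changes of -0.62 and -0.71, although Kap1 KD replicate 1 lay above control replicate 2. edgeR gave -0.66 (standard error 0.43, adjusted p = 0.9999), so that Ints8 was not called in this fit, which does not match samples by replicate number. At the other end, Ints5 had a log2 fold change of 0.20 (standard error 0.29).

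**Figure D5:**
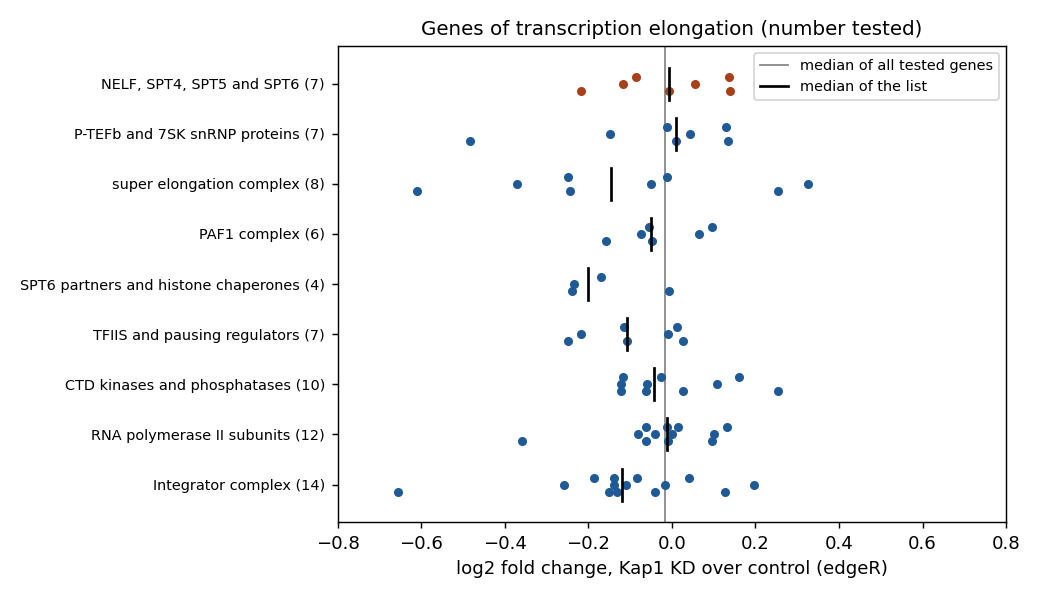
Log2 fold change of Kap1 KD over control from edgeR for the tested genes of each list, 1 point per gene, with the median of the list (black) and of all tested genes (grey, -0.02). The 7 genes span -0.22 to 0.14, and Ints8 (-0.66) and Eaf2 (-0.61) have the lowest values. In this fit, which does not match samples by number, 0 genes of any list and 0% of all tested genes were called.

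By level per kb, the RNA polymerase II subunits had a median of 44.9 CPM per kb, the P-TEFb and 7SK snRNP proteins 17.1, the Integrator genes 12.8 and the PAF1 complex 9.77. The median of the 7 genes was 28.6, and that of all tested genes 5.58. Rdbp, Supt4h1 and Supt5h thus stood above the median polymerase subunit and the other 4 below it. These are mRNA levels, and protein was not measured.

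The genes whose profile over the 4 samples was most like the mean of the 7 were Sec61a1, Atrip and Dyrk3, taken from 8726 tested genes with a mean of at least 10 CPM. Likeness was the root mean square difference of the centred log2 values, which was 0.006, 0.007 and 0.008 for these genes, and 366 of the genes lay under 0.05. Sec61a1, a subunit of the translocon of the endoplasmic reticulum, had 432 and 520 CPM in control and 431 and 520 CPM in Kap1 KD replicates 1 and 2. The shared profile was the difference between replicate numbers, with the mean of the 7 genes at -0.12 and 0.14 in control and -0.14 and 0.13 in Kap1 KD replicates 1 and 2. Among the 7, Supt5h was nearest to that mean (0.03) and Supt6h farthest from it (0.16).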

How the data were processed

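For the 4 mRNA samples, the values used are unnormalized gene counts with Ensembl identifiers. The name of that table speaks of small RNA, but its columns carry the titles of the mRNA samples. Per the authors, the counts were made before deposition with TopHat2 2.0.11 on mm9 (1 alignment per read, known junctions) and HTSeq 0.6.1, and were deposited without normalization. The strand setting of the counting is not given in the sources used here. The other tables hold tRNA and snoRNA counts and were not used. Symbols, positions and exon lengths came from the GENCODE M1 annotation of mm9, which matched 21806 of 21915 identifiers.

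Counts were filtered with filterByExpr, normalized with TMM and tested with the quasi-likelihood F test of edgeR 4.0.16 in R 4.3.3, group only, with Benjamini-Hochberg adjustment over 14142 genes. Calls needed 1.5-fold and an adjusted p under 0.05. The standard error is the log2 fold change over the square root of F. Pair changes are log2 of CPM plus 0.1, Kap1 KD minus control of the same number. DESeq2 1.42.0 was the alternative test. Copies were searched with minimap2, with at least 80% equal bases over 150 or more.

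Genes were named by rule: Trim28, the 7 genes, Supt4h2, the highest and lowest log2 fold change of each elongation list where no gene was called, and the 3 genes most like the mean of the 7. The members and lists were chosen with earlier results of these data known.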

Additional observations from a re-analysis of the deposited data

How the results depend on the processing

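In edgeR without a replicate block, 0 genes were called higher and 0 lower with TMM, median-of-ratios or total-count scaling, without the filter on low counts, and at an adjusted p under 0.05 with no minimum fold. DESeq2 called 2 higher and 1 lower. Leaving out 1 sample, with the lone sample assumed to vary like the others, gave 2 to 45 higher (most without Kap1 KD replicate 1) and 1 to 20 lower. Members and elongation list genes called stayed at 0 in all of these.

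Sample titles share the number 2 only, so the pairing is not established by the labels. Same-numbered samples deviated together (correlation 0.81 across genes), and the first principal component, with 75.8% of the variance, separated the numbers. With the replicate block, edgeR called 292 genes higher and 339 lower (4.46% of tested genes). Among them were 0 members and 1 elongation list gene, Ints8 (log2 fold change -0.67, adjusted p = 4.47e-16). This fit called Trim28 (log2 fold change -2.48), and its 95% intervals for the 7 members lay between -0.34 and 0.30, with 1 residual degree of freedom. At an adjusted p under 0.05 with no minimum fold, added after seeing the data, the block gave 1426 higher and 1626 lower (21.6% of tested genes), 1 member, Supt6h (log2 fold change -0.22, adjusted p = 0.00384), and 11 elongation list genes. DESeq2 with the block, also added later, called 110 higher and 124 lower (1.65% of tested genes), 0 members and 1 elongation list gene, again Ints8. With no minimum fold, 0 members had an adjusted p under 0.05 in that DESeq2 fit, against 6.07% of tested genes. Supt6h thus did not pass there.

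Leaving out 1 sample gave log2 fold changes of -0.27 to 0.14 for Cobra1, -0.29 to 0.10 for Th1l, -0.11 to 0.41 for Rdbp, -0.11 to 0.25 for Supt4h1 and -0.19 to 0.17 for Supt5h, all with changes of sign, against 0.04 to 0.24 for Whsc2 and -0.24 to -0.18 for Supt6h. Supt5h turned from -0.01 to 0.00 with DESeq2, with median-of-ratios factors and without the filter. The cause was not tested. With CPM plus 1, 3 members were lower and 2 higher in both pairs, as with CPM plus 0.1, and with total counts 4 were lower and 2 higher. With the longest transcript as length, 3 of 7 members kept their place in the order of levels. Counts of Supt4h1 and Supt4h2 summed were not run, since no row was matched to Supt4h2.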
